A study of Arabidopsis thaliana with 4 samples.

Results

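The small signalling peptide genes RALFL25, CLE27, CLV3 and GRI were followed in flowers of the Arabidopsis thaliana mutant apetala3. The 4 genes were chosen by symbol with their values known, each through a probe whose annotation names that gene alone, out of 5415 genes with such a probe. Each gene was measured by 1 probe, and all 4 had a value on every array. RNA from inflorescences of apetala3 and of the wild type was hybridised together on each of 4 long-oligonucleotide arrays, with the mutant RNA in channel 1 on arrays 1 and 3 and in channel 2 on arrays 2 and 4. The labels give no allele, background strain, age or growth condition, and nothing in them ties the arrays to separate plants or extracts, so the spread between arrays may be technical.

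Every value is a log2 ratio of apetala3 over wild type, and the files hold no level for either genotype. The labels do not name the numerator of the deposited ratios. The direction used here is a likely one, taken from anther genes because apetala3 flowers lack stamens, and with the opposite numerator every sign below would turn. The 6 tapetum and pollen wall genes with a probe of their own had a median of -2.93 in this direction, against 0.11 for all 25588 genes and probes tested. AP3, the mutated gene, and its partner PI had 0 probes annotated to them, so the genotype was not checked by them. The annotation names no gene for many probes, so this does not show that the array lacks these genes. The tissue label could not be checked against marker levels, since only ratios are given.

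The MADS-box factor APETALA3 gives petals and stamens their identity, and flowers without it make sepals and carpels in those positions. Plants use secreted peptides as short-range signals, cut from larger precursors and bound at the cell surface by receptor kinases. RALF peptides are cysteine-rich and bind receptor kinases of the FERONIA and ANXUR kind, which in pollen tubes guard the cell wall. CLE peptides are short, and the best known of them, CLV3, is made by stem cells of the shoot and floral meristem and limits the stem cell pool by restraining the gene WUSCHEL through the receptor CLV1. GRI, or GRIM REAPER, is the precursor of a peptide that is released by METACASPASE9 and acts through the receptor kinase PRK5 in cell death triggered by reactive oxygen.

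The 4 genes did not move together. RALFL25 was far lower in apetala3, GRI and CLE27 were higher, and CLV3 lay near the bulk of all genes. Of the 4, 3 were past the limma threshold (adjusted p under 0.05 over all genes and probes), 1 lower and 2 higher, where 18.5% of all genes and probes were past it, 8.43% higher and 10.1% lower. Among named genes alone the shares were 17.5%, 9.09% higher and 8.41% lower. These genes were chosen with the same values known, so the counts describe them and no test is given for them.

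RALFL25 (AT3G25165), a RALF-like peptide gene, had log2 ratios of -3.66, -3.90, -4.55 and -3.15 on arrays 1 to 4. All 4 arrays put it far below 0, with the most extreme value on array 3 and the mildest on array 4. The mean was -3.81 ± 0.58 (SD, n = 4 arrays), which is 14.1-fold lower in apetala3, and single arrays ran from 8.86-fold to 23.5-fold. It was the 29th lowest of the 5303 named genes tested. The means of the channel orientations were -4.10 with the mutant in channel 1 and -3.52 with it in channel 2.

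GRI (AT1G53130) had log2 ratios of 1.94, 1.802, 1.81 and 2.03 on arrays 1 to 4. The arrays lay within 0.22 of each other, the tightest of the 4 genes. The mean was 1.90 ± 0.11 (SD, n = 4 arrays), or 3.72-fold higher in apetala3, the 16th highest of the 5303 named genes. Of the 23 other named genes with a mean within 0.5 of that of GRI, 22 had a larger SD, and their median SD was 0.35.

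CLE27 (AT3G25905), a gene of the CLE family, had log2 ratios of 0.92, 1.07, 0.94 and 0.74 on arrays 1 to 4. Every array was above 0, with the lowest value on array 4. The mean was 0.92 ± 0.13 (SD, n = 4 arrays), or 1.89-fold higher in apetala3, and 2.15% of the named genes had a higher mean. The orientation means were 0.93 and 0.90, a gap smaller than the SD.

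CLV3 (AT2G27250), the stem cell peptide of the floral meristem, had log2 ratios of 0.64, 0.38, -0.21 and 0.15 on arrays 1 to 4. Array 3 had the opposite sign to the other 3 arrays. The mean was 0.24 ± 0.36 (SD, n = 4 arrays), so the spread was larger than the mean, and 35.0% of the named genes had a higher mean. It was the 1 gene of the 4 not past the threshold, which does not show that CLV3 was equal in the genotypes.

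**Figure D1:**
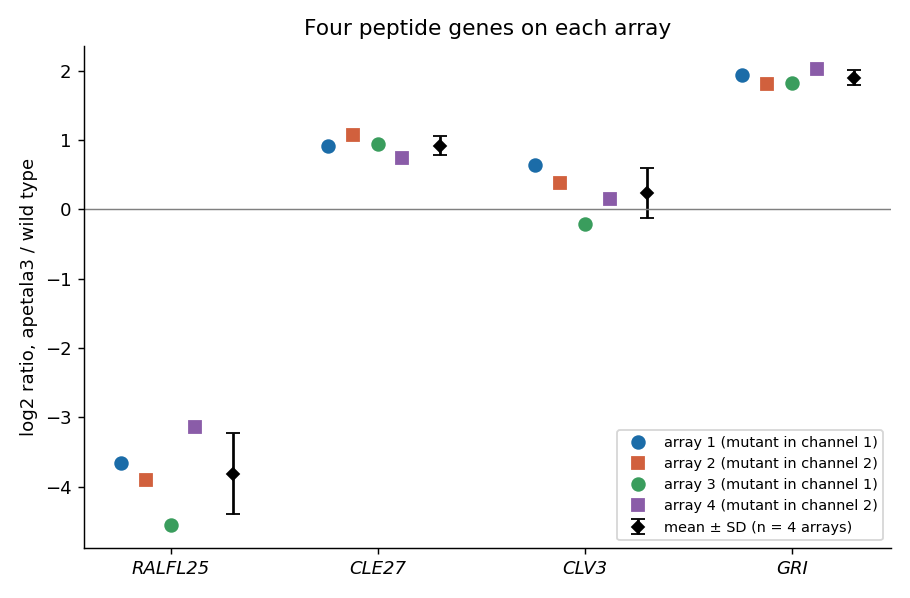
Log2 ratio of apetala3 over wild type (y axis) for RALFL25, CLE27, CLV3 and GRI on each of the 4 arrays; circles mark arrays with the mutant in channel 1, squares those with it in channel 2, and black diamonds the mean ± SD. RALFL25 sits between -4.55 and -3.15, GRI between 1.802 and 2.03 and CLE27 between 0.74 and 1.07, while the CLV3 points lie on both sides of 0.

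Set in order, the mean log2 ratios ran from RALFL25 through CLV3 and CLE27 to GRI. The difference of RALFL25 from CLV3 lay between -4.35 and -3.29 on every array. CLE27 exceeded CLV3 by 0.68 ± 0.36 (SD, n = 4 arrays), with single arrays between 0.28 and 1.14. GRI exceeded CLE27 on all 4 arrays, by 0.73 to 1.28. The arrays of neighbouring genes in this order therefore did not overlap, although the values of CLV3 and CLE27 came close, at 0.64 and 0.74. Each is the ratio of 1 gene between genotypes, and says nothing of which peptide gene was the more abundant.

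Empty spots, which carry no gene, were mostly above 0 on 3 of the arrays, so the genes with a mean above 0 are given beside them. The medians of empty spots were 0.76, 0.56, -0.27 and 0.84 on arrays 1 to 4. Of the 179 empty spots measured on at least 3 arrays, 11 (6.15%) had a mean at or above that of GRI, against 0.207% of genes and probes. For CLE27 the count was 44 (24.6%), against 2.18% of genes and probes. For CLV3 it was 127 (70.9%), against 33.1% of genes and probes. The differences of CLV3 from the empty-spot median lay between -0.70 and 0.06 on single arrays. The difference of CLE27 from the empty-spot median was -0.10 on array 4 and largest on array 3, where empty spots lay below 0 and CLE27 at 0.94. GRI lay 1.18 to 2.08 above the empty-spot median on every array. Fitted together with the genes, 36 of the 179 empty spots (20.1%) were called higher at the same limma threshold, against 8.43% of genes and probes, and 5 (2.79%) lower. No empty spot reached the mean of RALFL25 (0 of 179, which allows a share of up to 1.68%, for counting error only). The part of this offset in the values of CLE27, CLV3 and GRI was not tested.

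**Figure D2:**
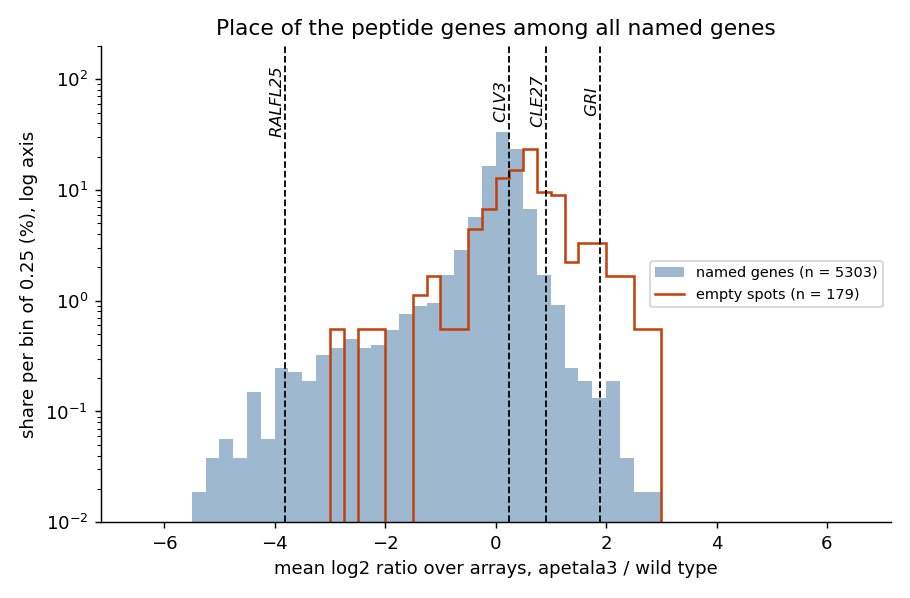
Share of named genes (filled, n = 5303) and of empty spots (outline, n = 179) in bins of 0.25 of the mean log2 ratio of apetala3 over wild type, on a log y axis, with dashed lines at the means of RALFL25, CLV3, CLE27 and GRI. RALFL25 lies in the low tail of the named genes, beyond every empty spot. CLV3, CLE27 and GRI lie within the range of empty spots, where 70.9%, 24.6% and 6.15% of those spots were as high or higher.

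Both RALFL25 and GRI also appear on a second probe that names relatives or other genes with them, and these probes gave smaller values. The probe naming RALFL30, RALFL26 and RALFL25 had log2 ratios of 0.23, 0.65, -0.40 and 0.35 on arrays 1 to 4, with a mean of 0.21 ± 0.18 (limma SE and adjusted p = 0.443). This probe was not lower in apetala3, and the probe of RALFL25 alone differed from it by -4.55 to -3.50 on single arrays. RALFL26 is the gene next to RALFL25 on the chromosome. Which of the 3 transcripts the shared probe reads, if any, cannot be told from the annotation. The medians of empty spots were 0.76, 0.56, -0.27 and 0.84 on the same arrays. Whether this probe differs from empty spots was not tested.

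The probe naming GRI, AT5G55110 and AT4G26880 read 1.03 on array 1, 0.62 on array 2 and 0.46 on array 4, with no value on array 3. Its mean of 0.71 ± 0.16 was higher in apetala3 (limma SE, 3 arrays, adjusted p = 0.0464). It had the same sign as the probe of GRI alone, which lay 0.91 to 1.57 above it on these arrays. That call was lost under 3 of the 5 alternatives run for it: with each array centred on its median, with values at the 100-fold bounds kept, and without array 3 (limma adjusted p = 0.0710, 0.0727 and 0.0548). Keeping bound values or leaving out array 3 changed none of its own values, and its mean stayed at 0.71. With 3 values, it was not fitted without array 1, 2 or 4, so its dependence on any of these is not known. A probe naming AT1G50720, AT5G55110 and AT4G26880, without GRI, was measured on 2 arrays only, at 0.28 and 0.33, and was not tested.

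**Figure D3:**
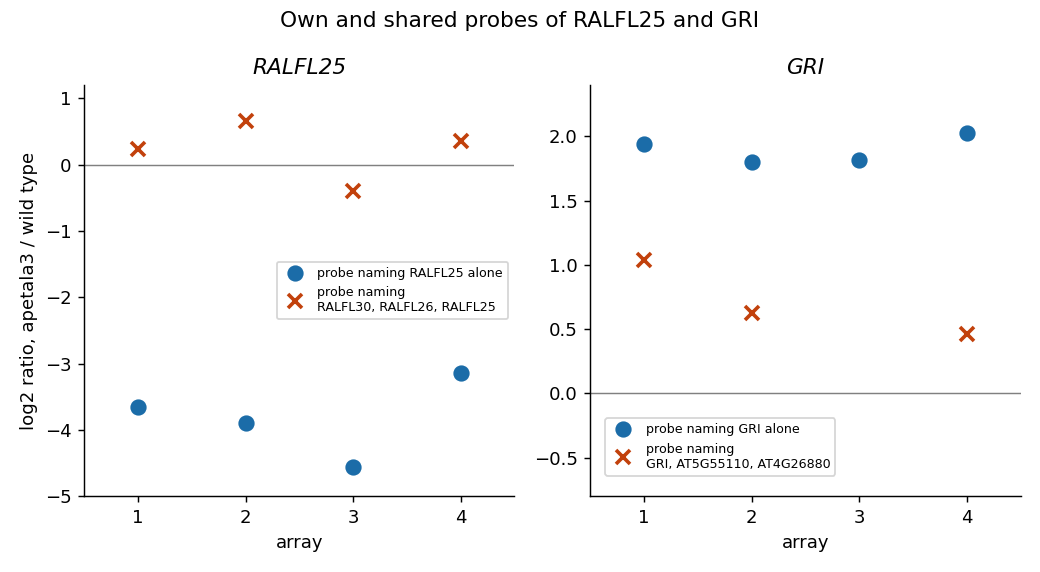
Log2 ratio of apetala3 over wild type (y axis) on arrays 1 to 4 (x axis) for the probe naming RALFL25 alone or GRI alone (circles) and for the probe that names the gene together with 2 others (crosses). The RALFL25 probe lies below its shared probe by differences of -4.55 to -3.50, whereas both GRI probes are above 0 wherever they were measured.

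The other RALF genes measured by name changed far less than RALFL25. Of 34 RALF genes on the list, 4 had a probe of their own, and the 3 besides RALFL25 did not pass the threshold. RALFL27 was at 0.12 ± 0.11 (limma SE, n = 4 arrays, adjusted p = 0.436). RALFL32 had -0.58, -0.48, -0.57 and 0.14 on arrays 1 to 4, so array 4 stood apart, and a mean of -0.37 ± 0.15 (limma adjusted p = 0.144). Without array 4 its mean was -0.54 and past the threshold (limma adjusted p = 0.0299). Over all gene probes array 4 tracked the others least, with Pearson r of 0.62 to 0.69, against 0.72 to 0.82 among arrays 1 to 3. RALFL34, which in roots acts on lateral root initiation, had 0.92, 0.81, 0.27 and 0.10 on arrays 1 to 4, so the first 2 lay above the last 2 (mean 0.52 ± 0.17, SE, limma adjusted p = 0.0877).

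Probes naming several RALF genes were not past the threshold either. The 2 probes naming RALFL31 and RALFL24 had means of -0.52 and 0.27 (limma adjusted p = 0.451 and 0.199), and the negative mean of the first rested on array 3, at -2.37. The probe naming RALFL21 and RALFL28 was at 0.03 ± 0.12 (limma SE, n = 4 arrays, adjusted p = 0.881), and at -0.07 with each array centred on its median.

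A probe for the receptors of RALF peptides was as low as RALFL25. The probe naming ANX2, FER and ANX1 had log2 ratios of -4.05, -3.88, -4.03 and -2.47 on arrays 1 to 4. It fell in apetala3 by a mean of 3.61 on the log2 scale (SE 0.29, n = 4 arrays, limma adjusted p = 0.00143). ANX1 and ANX2 are receptor kinases of the pollen tube tip, and FER, or FERONIA, is their relative in most other tissues. FER alone, by its own probe, had values of 0.07, -0.0025, 0.07 and 0.07 and a mean of 0.05 ± 0.09 (limma SE, n = 4 arrays, adjusted p = 0.689), so the drop on the shared probe was not seen on the probe of FER itself. No probe named ANX1 or ANX2 alone.

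The CLE genes with a probe of their own were CLV3, CLE27, CLE26 and CLE40, out of 31 on the list, and neither of the latter 2 passed the threshold. CLE26, a CLE peptide known from the root, was at 0.20 ± 0.12 (limma SE, n = 4 arrays, adjusted p = 0.275). CLE40, the close relative of CLV3 that acts in the root tip, had -0.56, -0.96, -0.75 and 0.26 on arrays 1 to 4. Its first 3 arrays were below 0 and array 4 above, with a mean of -0.50 ± 0.21 (limma adjusted p = 0.153). Without array 4 the mean was -0.75 and past the threshold (limma adjusted p = 0.0210). The probe naming CLE45 and AT1G69580 was at 0.19 ± 0.13 (limma SE, n = 4 arrays, adjusted p = 0.330).

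Little of the CLV3 pathway was measured by name. CLV3 was the 1 gene with a probe of its own among 34 of the CLV3 and WUS meristem list. The probe naming LATE and KNU had 0.77, 0.62, 0.08 and 0.49 on arrays 1 to 4 and a mean of 0.49 ± 0.14 (SE, limma adjusted p = 0.0628). It passed the threshold without array 3, at 0.63 (limma adjusted p = 0.0424), and with array weights, at 0.56 (limma adjusted p = 0.0345). KNU encodes a zinc finger repressor that ends stem cell activity in the flower by shutting off WUSCHEL. Like CLV3, this probe had its lowest value on array 3, where the median of empty spots was also lowest, at -0.27. From the receptor list, the probe naming AT1G08590 and AT4G28650, the receptor kinases PXL1 and PXL2, was at 0.61 ± 0.16 (limma SE, n = 4 arrays, adjusted p = 0.0560). It was past the threshold without array 4, at 0.78 (limma adjusted p = 0.0169), and with array weights, at 0.64 (limma adjusted p = 0.0244). EMS1, also of that list and the anther receptor kinase of the peptide TPD1, was at 0.07 ± 0.10 (limma SE, n = 4 arrays, adjusted p = 0.640). It was at -0.03 with each array centred on its median.

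Among other small peptides, 3 of 183 genes had a probe of their own, GRI being the highest. STOMAGEN, a peptide that promotes stomata, was highest on array 2, with values of 0.05, 1.43, 0.33 and 0.55 and a mean of 0.59 ± 0.24 (limma SE, n = 4 arrays, adjusted p = 0.134). LCR26, a cysteine-rich peptide gene, was at -0.05 ± 0.24 (limma adjusted p = 0.894), and at 0.25 without array 2. Of 27 genes for peptide processing and RALF partners, SBTI1.1, a subtilase, was the 1 measured by name, at 0.20 ± 0.12 (SE, limma adjusted p = 0.261).

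Over the 6 lists of peptides, receptors, processing and meristem genes, 10 genes besides RALFL25, CLE27, CLV3 and GRI were tested by name. By limma, 0 of the 10 were higher and 0 lower, with 2 at an unadjusted p under 0.05, against 17.5% of all named genes past the adjusted threshold. Their means ran from -0.50 to 0.59 with a median of 0.10, and the median of all named genes was 0.14. Of 9 tested probes that name several genes, including a CLE, RALF, receptor or meristem gene or GRI, 1 was higher, 1 lower and 7 not past the threshold. Of a further 11 shared probes for LCR and subtilase genes, the 10 tested had means between -0.48 and 0.26, and 0 passed the threshold. The untested probe had a value on 1 array only, at -0.61.

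**Figure D4:**
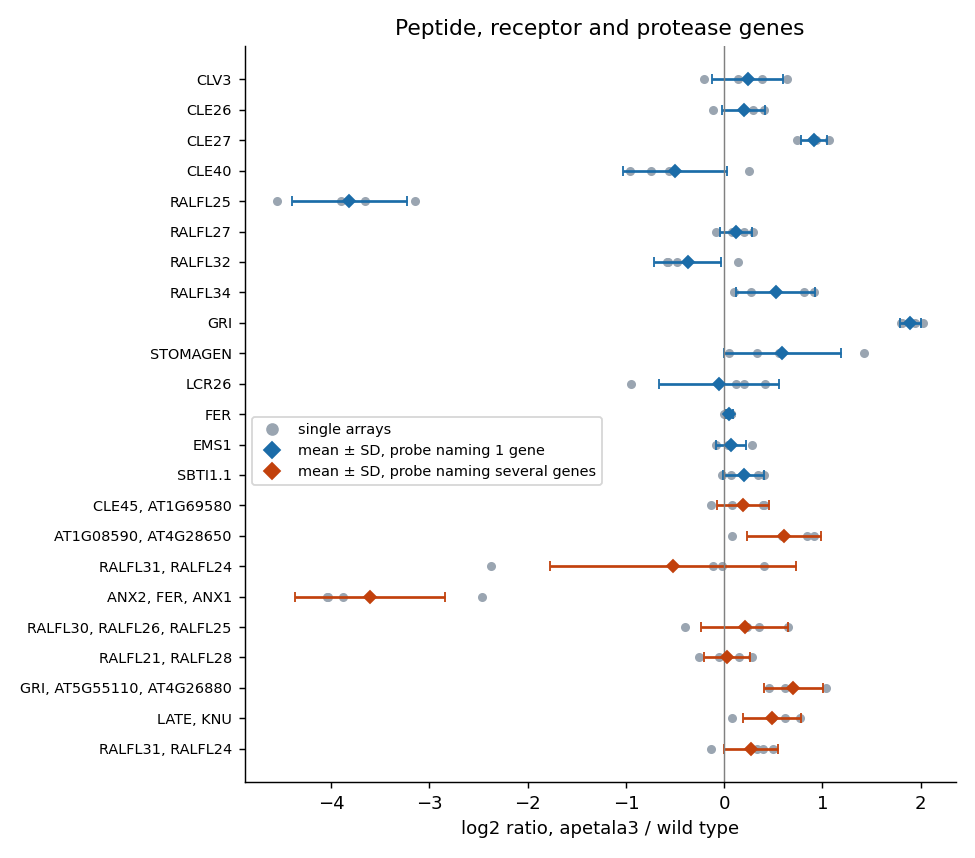
Log2 ratios of apetala3 over wild type (x axis) on single arrays (grey) with the mean ± SD for peptide, receptor and protease genes measured by a probe of their own (blue) and for probes naming several genes (red). RALFL25 and the probe naming ANX2, FER and ANX1 lie below -2.4 on every array, and GRI lies above 1.8. CLE27 lies between 0.74 and 1.07 and the shared probe of GRI between 0.46 and 1.03, while most others straddle or approach 0.

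Markers of floral organs moved beside these genes, and their part in the values of the peptide genes was not tested. Of the 6 tapetum and pollen wall genes measured, 5 fell, with means from -0.49 for SPL, a regulator of sporogenesis, to -4.10 for ATA27, an anther beta-glucosidase (limma adjusted p = 0.0337 and 0.0109). Those 2 calls were not firm: the SPL call was lost when array 1, 2 or 3 was left out, and the probes of ATA27 disagreed, at -6.08 and -0.65. Keeping values at the bounds moved its mean to -2.45, which did not pass the threshold (limma adjusted p = 0.0861). The other 3 that fell, ATA20, the sugar transporter SWEET8 and SHT, an enzyme of spermidine conjugates, were at -2.76, -3.97 and -3.11. Without array 2 the SHT call was lost (limma adjusted p = 0.0501). The remaining gene of the 6, EMS1, was at 0.07 and did not pass the threshold (limma adjusted p = 0.640). Since these genes fixed the direction, their sign is no evidence. Of 42 genes of mature pollen and pollen tubes 1 was measured by name, the pollen tubulin TUA1, which fell by 0.44 (limma adjusted p = 0.0408). The TUA1 call was lost when array 1, 2 or 3 was left out, with values at the bounds kept, and with a channel effect in the fit. Of 3 carpel and ovule genes measured, CES, a transmitting tract factor, rose by a mean of 1.85 ± 0.14 (limma SE and adjusted p = 0.00117), and SEU, a corepressor in ovule and petal development, rose by 0.35 (limma adjusted p = 0.0468). The SEU call was lost whichever array was left out, with centring, and with a channel effect in the fit. INO, needed for the outer integument of the ovule, had a mean of 0.20 that was not past the threshold. In whole inflorescences, fewer cells of a type and less RNA per cell cannot be told apart.

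The named genes closest to each peptide gene over the 4 arrays were found by the root mean square difference of their values among 5143 genes measured on every array. For RALFL25 they were AT2G29790, scpl38 and AT1G26320, with differences of 0.20, 0.23 and 0.25. For GRI they were AT5G38900, AT1G72290 and AT5G57500, at 0.24, 0.27 and 0.29. RALFL25 and GRI each had 14 genes within 0.5. CLE27 was closest to AT1G70000, AT5G48800 and TRM23, at 0.11, 0.13 and 0.15, and had 510 genes within 0.5. CLV3 was closest to AT4G28780, AT5G46660 and AT1G75090, at 0.04, 0.07 and 0.10, with 2986 genes within 0.5. This measure includes the mean, so these counts follow from how far each gene lies from the bulk of genes.

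Few of the genes beside them on the chromosomes were measured by name. Among the 3 protein-coding genes on each side of each peptide gene in the TAIR10.1 order, 6 of 24 had a probe of their own, and 1 of the 6 was past the threshold, where 18.5% of all genes and probes were. AT3G25160, next to RALFL25, was at -0.29, HMT-1, next to CLE27, at -0.06, AT2G27240, next to CLV3, at 0.46 and AT1G53120, next to GRI, at 0.21. AT2G27270, also near CLV3, was at 0.02, -0.19, -2.75 and -0.14 on arrays 1 to 4, with a mean of -0.77 that did not pass the threshold (limma adjusted p = 0.306). The 1 past the threshold was AT3G25930, the third gene from CLE27, which fell by 1.88 (SE 0.16, n = 4 arrays, limma adjusted p = 0.00174), opposite in sign to CLE27.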

How the data were processed

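The authors deposited a log2 ratio of the channels for each spot of 4 arrays, processed and normalized by the authors as in an earlier publication, per the labels. The scanner, the background method and the normalization steps were not stated in these sources, and the values were not centred exactly: array medians as deposited were -0.11, 0.12, -0.10 and 0.08. The scale was read from their symmetry and their bounds at 100-fold. Ratios of arrays 1 and 3 were multiplied by -1. Arrays of opposite orientation had a median Pearson r of -0.70 across gene probes as deposited. Values at the bounds (above 6.6438 in size; 268 to 701 gene probes per array) were taken as not measured.

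Of 26474 gene probes, the platform annotation gave 1 gene for 5784, of which 5756 matched the TAIR10.1 gene table and took its symbols, several for 7497, and none for the rest. Probes of 1 gene were averaged. Features measured on at least 3 arrays (25588) were tested against 0 with limma 3.58.1 (R 4.3.3) and p-values were adjusted by Benjamini-Hochberg, while figures were drawn with matplotlib 3.10.9. Errors are SDs or limma's SEs as stated. With 4 arrays, the smallest p of an exact sign-flip test is 0.125. On data simulated from the spread of 24697 features the procedure recovered 84.6% of changes of 2 on the log2 scale and 51.0% of changes of 1, with 4.84% false calls. The simulated noise was centred on 0 and independent between features, without the offset seen in empty spots. The 4.84% therefore does not give the share of false calls in the real data, where 36 of 179 empty spots were called higher.

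The members and gene lists were chosen with earlier results of these data known. List names were matched by symbol or synonym, and names shared with unrelated genes were dropped. Genes were named by rule: the 4 peptide genes, all measured genes of the CLE, RALF and receptor lists, up to 4 called genes (or the 2 largest) of every other list, and the 3 genes nearest to each peptide gene. Shared probes and chromosome neighbours were added after the data were seen. Alternatives left out each array, centred the arrays, kept values at the bounds, added a channel effect, weighted arrays, took single probes, or used a threshold of 0.01. The number of arrays limits the precision.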

Additional observations from a re-analysis of the deposited data

Results flagged for a closer look

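One array lay apart from the other 3 for 4 of 43 genes and probes checked, where chance gives about 1 in 20, or 2.15. The gap was judged as a share of the range of the 4 values, so small gaps can count. Genes beside the peptide genes on the chromosomes were not among the 43. RALFL32 was at 0.141 on array 4, against -0.58 to -0.48 on the others. FER was at -0.00248 on array 2, against 0.067 to 0.073, a small gap, since its 4 values spanned only 0.076. The probe naming ANX2, FER and ANX1 was at -2.47 on array 4, against -4.05 to -3.88. TRM23, a gene with a profile close to CLE27, was at 1.05 on array 2, against 0.69 to 0.75. None of RALFL25, CLE27, CLV3 and GRI was among them.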

How the results depend on the processing

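The means of RALFL25, CLE27, CLV3 and GRI kept their sign and moved by less than their SD under every alternative run. Without 1 array in turn they ranged from -4.04 to -3.57 for RALFL25, 0.86 to 0.97 for CLE27, 0.11 to 0.39 for CLV3 and 1.85 to 1.93 for GRI. With each array centred on its median they were -3.92, 0.81, 0.14 and 1.79. Each has 1 probe, so taking probes singly changed nothing. RALFL25, CLE27 and GRI made the counts of 1 lower and 2 higher under every alternative. Of the 10 other peptide and receptor genes, 0 to 2 were lower without 1 array in turn (CLE40 and RALFL32 without array 4), 0 were higher, and 1, RALFL34, was higher with array weights. Signs turned for LCR26, from -0.21 to 0.25 without 1 array in turn (0.25 without array 2), FER and EMS1 with centring (-0.048 and -0.029), INO by 1 of its probes (-0.062), the lower RALFL31 and RALFL24 probe (-0.83 to 0.093, the latter without array 3), and the RALFL21 and RALFL28 probe (-0.056 to 0.125, below 0 without array 3 or 4), which was also below 0 with centring (-0.072) and with array weights (-4.01e-05). None of these was past the threshold. Over all genes and probes, 2158 were higher and 2579 lower, and without 1 array in turn 342 to 2412 and 1476 to 2616. Higher counts were 1065 with centring, 1430 with values at the bounds kept, 1430 with a channel effect and 3751 with array weights. An adjusted p under 0.01 gave 304 higher and 1341 lower. The cause of these shifts was not tested. Each ratio is already paired within its array. No paired analysis was possible beyond that because the 4 arrays form a single group, with no second group that shares their numbers.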
